A study of Homo sapiens with 12 samples.

Results

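The genes examined are 10 regulators of the G1 phase of the cell cycle, the D-type cyclins CCND1, CCND2 and CCND3, the E-type cyclins CCNE1 and CCNE2, the kinases CDK4 and CDK6, the inhibitors CDKN1B and CDKN2C, and RB1. They were chosen by name and not by their values, because the study addresses G1 accumulation of prostate cancer cells that express MEIS1. Earlier results of these data were known when they were chosen. CDKN1A, the inhibitor p21, was left out of the set and serves here as a reference. Of the 10 genes, 9 are among the 13951 genes analysed. CCND2 was not analysed here. On GRCh38, with the gene limits of GENCODE 44, the genes whose levels differed in any comparison lie at chr12:57747727-57756013 (CDK4, minus strand), chr7:92604921-92836573 (CDK6, minus strand), chr12:12685498-12722369 (CDKN1B, plus strand), chr1:50960745-50974634 (CDKN2C, plus strand) and chr13:48303744-48599436 (RB1, plus strand).

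RNA-seq was performed on derivatives of CWR22Rv1, an established line of human prostate carcinoma from a xenograft that had relapsed after castration. Control cells carried exogenous Cas9 and no guide RNA. LV-MEIS1 cells expressed the homeodomain factor MEIS1 from a lentiviral vector, and whether they also carried Cas9 is not given in the sources used here. HOXB13ko cells were a single pool of 6 clonal CRISPR knockout lines of HOXB13, a homeodomain partner of MEIS1, and HOXB13ko-LV-MEIS1 cells were that pool after infection with the MEIS1 vector. All 12 libraries, 3 per group, came from cells kept in puromycin at 1 µg/mL and grown for 48 h. Each group is 1 line or pool, and nothing in the labels says that its replicates were derived independently, so p-values measure the spread between these cultures.

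Progression through G1 is set by the balance of cyclins, their kinases and the inhibitors of those kinases. D-type cyclins activate CDK4 and CDK6, and E-type cyclins activate CDK2, and both kinds of complex phosphorylate the RB1 protein, which otherwise holds E2F factors inactive. CDKN1B (p27) restrains cyclin E and CDK2, and CDKN2C (p18) binds CDK4 and CDK6. Much of this control acts on protein stability and phosphorylation, which mRNA levels do not show.

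Levels are given as deposited, in CPM, a read count relative to library size. MEIS1 mRNA was 4.25 ± 0.202 CPM in Control (mean ± SD, n = 3 here and below), 47.4 ± 1.96 in LV-MEIS1, 3.56 ± 0.118 in HOXB13ko and 29.7 ± 0.365 in HOXB13ko-LV-MEIS1, as the labels state. HOXB13 mRNA was 196 ± 17.1 CPM in Control and 151 ± 0.77 in LV-MEIS1, but 327 ± 20.1 and 354 ± 25.1 in the groups labelled HOXB13ko and HOXB13ko-LV-MEIS1, so its level goes against the knockout label. CPM per gene cannot show whether a transcript is edited, and the study checked the knockout on protein. Step-based depth estimates ran from 17200000 to 28700000 reads per library. All 10 luminal prostate markers were listed, with a summed level of 3547 to 3670 CPM in Control, 2845 to 2903 in LV-MEIS1, 3754 to 3802 in HOXB13ko and 3749 to 3925 in HOXB13ko-LV-MEIS1. None of 3 basal and 3 endothelial markers was listed, and of the 5 stromal, 4 leukocyte and 4 neuroendocrine markers 3, 1 and 1 were. The stromal sum was 23.4 to 27.0 CPM in Control, 34.9 to 41.0 in LV-MEIS1, 32.6 to 32.8 in HOXB13ko and 28.6 to 34.9 in HOXB13ko-LV-MEIS1, and COL1A2 and COL3A1 were not listed. The listed leukocyte marker lay between 0.682 and 3.56 CPM, and the listed neuroendocrine marker was at 14.4 to 17.0 CPM in Control and at 1.24 to 4.35 CPM in the other groups. The part of these differences in the results below was not tested.

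The G1 regulators moved little between the groups. Differences were tested on log2(CPM + 0.5) in limma, with treat against a 1.5-fold change (0.58 on the log2 scale) and with eBayes against no change, each with Benjamini-Hochberg adjustment over all 13951 genes. In treat, 0 of the 9 genes were called in any comparison, and 0 had an unadjusted treat p below 0.05. Treat called 3.99% of all genes in LV-MEIS1 versus Control, 1.41% in HOXB13ko versus Control, 0.00717% in HOXB13ko-LV-MEIS1 versus HOXB13ko, 2.93% in the difference of the MEIS1 effects and 6.71% in HOXB13ko-LV-MEIS1 versus LV-MEIS1. Against no change, eBayes called 4 of the 9 in LV-MEIS1 versus Control, 3 in HOXB13ko versus Control, 0 in HOXB13ko-LV-MEIS1 versus HOXB13ko, 1 in the difference of the MEIS1 effects and 2 in HOXB13ko-LV-MEIS1 versus LV-MEIS1. Over all genes the shares were 44.5%, 32.9%, 0.0502%, 34.2% and 50.1%, and the counts among the 9 genes lie near or below them. Comparisons with Control share its 3 libraries, and those with LV-MEIS1 or HOXB13ko share theirs.

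The intervals bound the changes. The 95% interval of the log2 fold change lay within a 1.5-fold change either way for 9 of 9 genes in LV-MEIS1 versus Control, in HOXB13ko versus Control and in HOXB13ko-LV-MEIS1 versus HOXB13ko, where 70.5%, 77.9% and 88.1% of all genes did. In the difference of the MEIS1 effects it did so for 7, the exceptions being CCND3 and CDK6, against 56.2% of all genes, and in HOXB13ko-LV-MEIS1 versus LV-MEIS1 for 8, the exception being CDK6, against 66.4%. The ratio of the highest to the lowest group mean ran from 1.06 for CCNE2 to 1.36 for CDK6. The median size of the log2 fold change was 0.14 over the 9 genes and 0.20 over all genes in LV-MEIS1 versus Control. It was 0.16 and 0.17 in HOXB13ko versus Control, 0.06 and 0.09 in HOXB13ko-LV-MEIS1 versus HOXB13ko, 0.06 and 0.24 in the difference of the MEIS1 effects, and 0.09 and 0.23 in HOXB13ko-LV-MEIS1 versus LV-MEIS1.

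**Figure D1:**
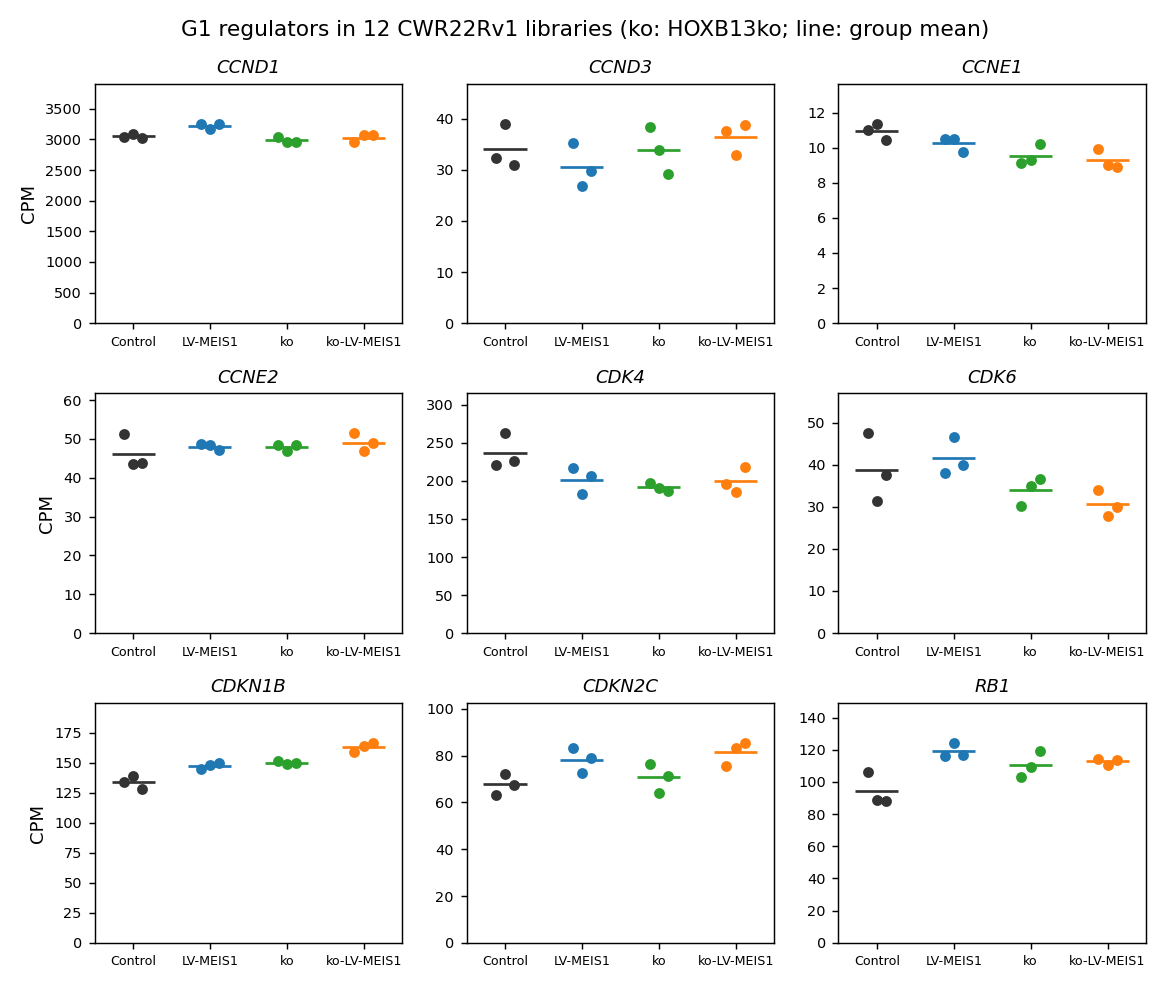
Level of each of the 9 listed G1 regulators in the 12 libraries. The vertical axes give CPM from 0, points are libraries and lines are the means of 3 libraries. CDK4 lies highest in Control, RB1 and CDKN1B lie lowest in Control, and the group means of every gene lie within a ratio of 1.36.

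Among the cyclins, CCND1 was by far the most abundant, and no cyclin was called in any comparison in the main fit. CCND1, the D-type cyclin that links growth signals to CDK4 and CDK6, was at 3041, 3086 and 3019 CPM in Control, 3259, 3168 and 3251 in LV-MEIS1, 3036, 2962 and 2950 in HOXB13ko and 2959, 3066 and 3064 in HOXB13ko-LV-MEIS1. The 3 LV-MEIS1 libraries were the highest of the 12. The log2 fold change was only 0.08 ± 0.05 (SE) in LV-MEIS1 versus Control (95% interval -0.03 to 0.19, eBayes adjusted p = 0.205), and -0.03 ± 0.05 in HOXB13ko versus Control. Quantile scaling raised the first value to 0.21 with an eBayes adjusted p of 0.0187. The groups did not overlap for 5 of the 9 genes in that comparison, and for 51.3% of all genes. In HOXB13ko-LV-MEIS1 versus LV-MEIS1 the log2 fold change of CCND1 was -0.09 ± 0.05 (eBayes adjusted p = 0.149). CCND1 was called there with equal sum scaling (adjusted p = 0.0354) and quantile normalisation (0.0441).

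CCND3, the other D-type cyclin listed, was at 32.2, 39.0 and 31.0 CPM in Control, 35.3, 26.8 and 29.7 in LV-MEIS1, 38.3, 33.9 and 29.1 in HOXB13ko and 37.7, 32.9 and 38.7 in HOXB13ko-LV-MEIS1. Its groups overlapped throughout. Per kilobase of exon, which allows levels of different genes to be compared, CCND1 stood at 640 ± 7.15 CPM per kb in Control and CCND3 at 5.91 ± 0.755. CCND3 made up 0.914% ± 0.105 of the summed level of both genes in Control, 0.776% ± 0.0988 in LV-MEIS1, 0.926% ± 0.112 in HOXB13ko and 0.984% ± 0.0913 in HOXB13ko-LV-MEIS1. Two-sided exact permutation tests gave p = 0.30 for LV-MEIS1 versus Control, 1.00 for HOXB13ko versus Control, 0.50 for HOXB13ko-LV-MEIS1 versus HOXB13ko and 0.20 for HOXB13ko-LV-MEIS1 versus LV-MEIS1, where 0.10 is the smallest p that 3 against 3 libraries allow. Taking the longest transcript as the length gave a CCND3 share of 1.94% in Control.

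The E-type cyclins, which drive CDK2 at the end of G1, were not called either, although CCNE1 lay lower in HOXB13ko than in Control. CCNE1 was at 11.0, 11.4 and 10.4 CPM in Control, 10.5, 10.5 and 9.77 in LV-MEIS1, 9.13, 9.28 and 10.2 in HOXB13ko and 9.94, 8.99 and 8.89 in HOXB13ko-LV-MEIS1. All HOXB13ko libraries lay below all Control libraries, with a log2 fold change of -0.19 ± 0.09 (95% interval -0.37 to 0.00, eBayes adjusted p = 0.107). In that comparison the groups did not overlap for 3 of the 9 genes and for 44.9% of all genes. CCNE1 rested on the fewest reads of the 9, an estimated 165 to 286 per library. CCNE2 was at 51.2, 43.5 and 43.7 CPM in Control, 48.6, 48.4 and 47.1 in LV-MEIS1, 48.5, 46.9 and 48.5 in HOXB13ko and 51.4, 46.9 and 48.9 in HOXB13ko-LV-MEIS1. The estimate on the log2 scale was 0.06 ± 0.07 for both LV-MEIS1 versus Control and HOXB13ko versus Control, and the groups overlapped in both. Exons of CCNE2 share 1629 bases with INTS8 and those of CCND1 share 497 with LTO1, each on the opposite strand, and the counting did not use strand.

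CDK4, the main kinase partner of D-type cyclins in many epithelial cells, was lower in all 9 libraries of the derived groups than in Control. It was at 220.5, 263 and 226 CPM in Control, 217, 182 and 206 in LV-MEIS1, 197, 191 and 187 in HOXB13ko and 196, 186 and 218 in HOXB13ko-LV-MEIS1. It fell by 0.23 ± 0.08 on the log2 scale in LV-MEIS1 versus Control (eBayes adjusted p = 0.0294), and by 0.30 ± 0.08 in HOXB13ko versus Control (eBayes adjusted p = 0.0102). The groups do not overlap in either comparison, where 51.3% and 44.9% of all genes do not. The derived groups overlapped each other, and the log2 fold change was 0.06 ± 0.08 in HOXB13ko-LV-MEIS1 versus HOXB13ko and -0.01 ± 0.08 in HOXB13ko-LV-MEIS1 versus LV-MEIS1. The difference of the MEIS1 effects was -0.29 ± 0.11 (95% interval -0.52 to -0.05, eBayes adjusted p = 0.0585). This difference was called in 4 of 20 other settings, with an adjusted p down to 0.0354. In LV-MEIS1 versus Control the eBayes adjusted p was 0.143 without Control replicate 2 and 0.147 without LV-MEIS1 replicate 2, the highest and the lowest library for CDK4, and in HOXB13ko versus Control it was 0.0519 without Control replicate 2. The call in LV-MEIS1 versus Control was also lost with a prior without a trend (adjusted p = 0.0609). Exons of CDK4 share 1369 bases with TSPAN31 on the opposite strand, and the counting did not use strand, so reads of the pair cannot be told apart there.

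CDK6, the second kinase partner, had the widest range of group means and of single libraries among the 9 genes. It was at 47.5, 31.4 and 37.5 CPM in Control, 38.1, 46.5 and 39.9 in LV-MEIS1, 30.2, 34.9 and 36.7 in HOXB13ko and 34.0, 27.8 and 30.0 in HOXB13ko-LV-MEIS1. Control alone spanned nearly the whole range. CDK6 differed between both MEIS1 groups, where it was lower by 0.43 ± 0.13 log2 units in HOXB13ko-LV-MEIS1 (95% interval of the log2 fold change -0.71 to -0.16, eBayes adjusted p = 0.0113). Of the 9 genes, 4 did not overlap between these groups, against 58.3% of all genes. The eBayes adjusted p was 0.0529 without LV-MEIS1 replicate 2 and 0.0504 without HOXB13ko-LV-MEIS1 replicate 2. Against Control, the log2 fold change of CDK6 was 0.11 ± 0.13 in LV-MEIS1 and -0.17 ± 0.13 in HOXB13ko, neither called.

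CDK4 and CDKN2C, which encode a kinase and its inhibitor and moved in opposite directions in LV-MEIS1, both have letters of E-box type upstream, and their sequences are shown for that reason. RefSeq promoter windows (GRCh38.p14, 250 bases before to 50 after a start) were matched for 7 of the 10 genes and not for CCND1, CCND2 and CCNE2. They were searched on both strands for CACGTG, the E-box that MYC and related factors bind, for TGACAG, a core of MEIS sites, and for TTTCCCGC, TTTGGCGC and TTTCGCGC, forms of the E2F site. Of 35116 windows, 7.26% hold CACGTG, 15.8% hold TGACAG, and 1.63%, 0.652% and 0.515% hold the E2F forms. These shares are per window. CCND3 and CDKN2C had 3 windows each, CDK6 had 2 and the other matched genes had 1, so genes with more windows had more chances of a match. The CDK4 window has CACGTG at 216, 196 and 101 bases before the start. A CDKN2C window has CACGTG at 69 and TGACAG at 226 bases before the start, and TGACAG again at 22 bases after it. The stretches below lie inside their genes at chr12:57752448-57752560 (minus strand) and chr1:50969995-50970244 (plus strand), outside annotated untranslated regions, with motifs in capitals:
CDK4: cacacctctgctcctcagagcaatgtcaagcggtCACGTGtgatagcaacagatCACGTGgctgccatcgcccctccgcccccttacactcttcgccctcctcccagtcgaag
CDKN2C: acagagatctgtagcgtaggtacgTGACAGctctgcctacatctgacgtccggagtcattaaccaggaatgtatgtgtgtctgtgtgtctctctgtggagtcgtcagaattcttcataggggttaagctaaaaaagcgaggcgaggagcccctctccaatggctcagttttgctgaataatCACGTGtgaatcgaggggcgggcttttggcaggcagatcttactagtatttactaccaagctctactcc
The stretch of CDK4 holds the CACGTG at 216 and 196. In the other windows, CDK6 has CACGTG at 31 bases after the start, and TGACAG occurs in CCND3 at 2 and in CCNE1 at 235 bases before it. A second CDKN2C window has CACGTG at 220 and TGACAG at 70 and 50 bases before its start. The E2F forms were found in none of the 7 genes. These are matches of letters, and no binding was measured in these libraries.

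MYC mRNA, whose product binds CACGTG, was 358 ± 26.7 CPM in Control, 227 ± 10.8 in LV-MEIS1, 352 ± 12.7 in HOXB13ko and 378 ± 32.1 in HOXB13ko-LV-MEIS1. It fell by 0.66 ± 0.07 on the log2 scale in LV-MEIS1 versus Control (eBayes adjusted p = 2.7e-06) and differed by -0.02 ± 0.07 in HOXB13ko versus Control. The part of MYC in the levels of CDK4 and CDKN2C was not tested.

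The inhibitors CDKN1B and CDKN2C were slightly higher in LV-MEIS1 than in Control. CDKN1B, which encodes p27, was at 134, 139 and 129 CPM in Control, 145, 148 and 150.1 in LV-MEIS1, 151, 149 and 149.7 in HOXB13ko and 159.0, 164 and 166 in HOXB13ko-LV-MEIS1. Control was lowest, HOXB13ko-LV-MEIS1 was highest, and LV-MEIS1 and HOXB13ko overlapped between them. Its replicates were close, and it rose by 0.14 ± 0.04 on the log2 scale in LV-MEIS1 versus Control (eBayes adjusted p = 0.0209), by 0.16 ± 0.04 in HOXB13ko versus Control (adjusted p = 0.0125) and by 0.14 ± 0.04 in HOXB13ko-LV-MEIS1 versus LV-MEIS1 (adjusted p = 0.0142). In HOXB13ko-LV-MEIS1 versus HOXB13ko the log2 fold change was 0.12 ± 0.04 (95% interval 0.02 to 0.21) and was not called (adjusted p = 0.243), although the groups do not overlap. That held for 1 of the 9 genes and for 21.1% of all genes. The difference of the MEIS1 effects was 0.02 ± 0.06 (95% interval -0.12 to 0.15). The adjusted p of LV-MEIS1 versus Control was 0.094 without Control replicate 3, 0.0573 without LV-MEIS1 replicate 2 and 0.0683 without LV-MEIS1 replicate 3. For HOXB13ko versus Control it was 0.0581 without Control replicate 3, and for HOXB13ko-LV-MEIS1 versus LV-MEIS1 it was 0.0539 without HOXB13ko-LV-MEIS1 replicate 3. The first of these calls was also lost in a fit of only the groups compared (adjusted p = 0.0744), and the last with equal sum scaling (0.0563) and quantile normalisation (0.0864).

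CDKN2C, which encodes p18, was at 63.4, 72.2 and 67.5 CPM in Control, 83.1, 72.6 and 78.9 in LV-MEIS1, 76.3, 64.2 and 71.5 in HOXB13ko and 75.7, 83.2 and 85.3 in HOXB13ko-LV-MEIS1. LV-MEIS1 lay above Control without overlap, by the margin of 72.6 over 72.2 CPM. It rose by 0.21 ± 0.08 on the log2 scale in LV-MEIS1 versus Control (eBayes adjusted p = 0.0371). In HOXB13ko-LV-MEIS1 versus HOXB13ko the log2 fold change was 0.20 ± 0.08 (95% interval 0.04 to 0.36, adjusted p = 0.237), and the difference of the MEIS1 effects was 0.00 ± 0.11 (95% interval -0.22 to 0.23). The call versus Control was lost without Control replicate 1 (adjusted p = 0.123), Control replicate 3 (0.08), LV-MEIS1 replicate 1 (0.137) or LV-MEIS1 replicate 3 (0.0881), and with a prior without a trend (0.065). CDKN1B and CDKN2C were the 2 of 9 genes with an unadjusted eBayes p below 0.05 in HOXB13ko-LV-MEIS1 versus HOXB13ko, as were 14.8% of all genes.

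RB1, the pocket protein that the G1 kinases inactivate, showed the change that held most often. It was at 106, 88.8 and 88.4 CPM in Control, 116, 124 and 117 in LV-MEIS1, 103, 109 and 119 in HOXB13ko and 114, 111 and 114 in HOXB13ko-LV-MEIS1. All 3 LV-MEIS1 libraries lay above all Control libraries and above all HOXB13ko-LV-MEIS1 libraries, and HOXB13ko overlapped Control. Such separation held for 51.3% of all genes in LV-MEIS1 versus Control and for 58.3% in HOXB13ko-LV-MEIS1 versus LV-MEIS1. The log2 fold change of RB1 in the latter was -0.07 ± 0.07 (95% interval -0.23 to 0.08), not called (eBayes adjusted p = 0.403). RB1 rose by 0.33 ± 0.07 on the log2 scale in LV-MEIS1 versus Control (95% interval 0.18 to 0.49, eBayes adjusted p = 0.0016) and by 0.23 ± 0.07 in HOXB13ko versus Control (adjusted p = 0.0248). The first of these was called in 21 of 21 other settings, with an adjusted p of at most 0.0104. The second was lost without Control replicate 2 (adjusted p = 0.102), Control replicate 3 (0.102), HOXB13ko replicate 2 (0.0576) or HOXB13ko replicate 3 (0.12), with a prior without a trend (0.0514) and in a fit of only the groups compared (0.0628). In HOXB13ko-LV-MEIS1 versus HOXB13ko the log2 fold change of RB1 was 0.03 ± 0.07 (95% interval -0.12 to 0.18). The difference of the MEIS1 effects was 0.30 ± 0.10 (95% interval 0.09 to 0.52, eBayes adjusted p = 0.0318). It was called in 11 of 20 other settings and missed the threshold when any of 7 of the 12 libraries was left out, these being replicates 2 and 3 of Control, HOXB13ko and HOXB13ko-LV-MEIS1 and replicate 2 of LV-MEIS1, with adjusted p-values up to 0.0831. It was also lost with a prior without a trend (0.0619).

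**Figure D2:**
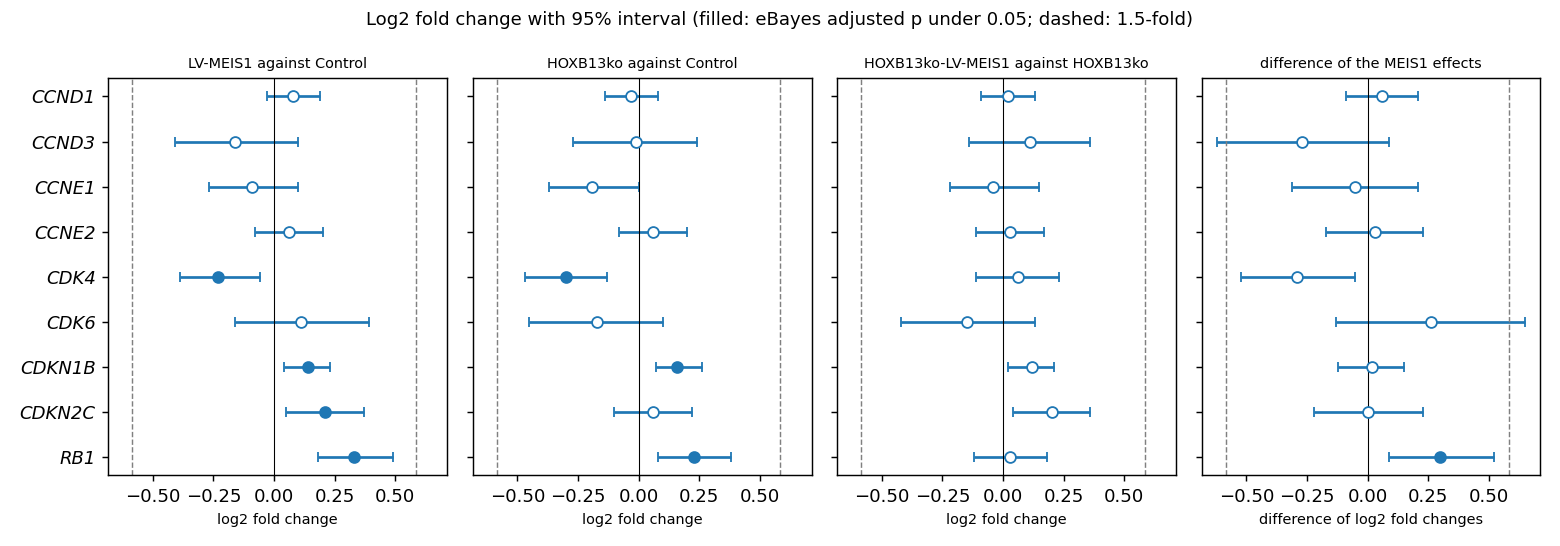
Log2 fold change of each gene in 3 comparisons, and the difference of the MEIS1 effects, with 95% intervals from limma over 12 libraries. Filled points have an eBayes adjusted p under 0.05 and dashed lines mark a 1.5-fold change. Outside the panel of differences no interval reaches a dashed line, and the filled points are CDK4 on the lower side and CDKN1B, CDKN2C and RB1 on the higher side.

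CDKN1A, the inhibitor p21 that the set leaves out, moved more than any of the 9 in LV-MEIS1 versus Control and in HOXB13ko versus Control. It was at 112, 123 and 108 CPM in Control, 74.2, 65.4 and 74.1 in LV-MEIS1, 173, 165 and 162 in HOXB13ko and 165, 163 and 176 in HOXB13ko-LV-MEIS1. LV-MEIS1 was lowest and both groups labelled HOXB13ko were highest, without overlap with Control. Its mRNA fell by 0.68 ± 0.06 on the log2 scale in LV-MEIS1 versus Control (eBayes adjusted p = 8.2e-07). The difference between HOXB13ko-LV-MEIS1 and LV-MEIS1 was 1.24 ± 0.06 (treat adjusted p = 1.5e-06). For the protein, the study reported the opposite direction, with more p21 on western blots of CWR22Rv1 cells expressing MEIS1 and given a control siRNA. Among the 5 inhibitors outside the set, eBayes called 4 in LV-MEIS1 versus Control, 2 higher and 2 lower, where 44.5% of all genes were called, 23.2% higher and 21.3% lower. The 3 beside CDKN1A are named here after their values were seen. CDKN1C, which encodes p57, was at 2.73, 3.64 and 4.60 CPM in Control and 8.26, 6.17 and 7.71 in LV-MEIS1, and its adjusted p was 0.00033. CDKN2B, which encodes p15, was at 2.88, 3.02 and 3.13 CPM in Control and 5.09, 5.37 and 5.78 in LV-MEIS1, and its adjusted p was 0.00016. CDKN2A, which encodes p16 and ARF, was lower, at 46.8 ± 5.62 CPM in Control and 36.3 ± 6.09 in LV-MEIS1 (adjusted p = 0.0142). In LV-MEIS1 the inhibitors moved in both directions, with CDKN1B, CDKN2C, CDKN1C and CDKN2B higher and CDKN1A and CDKN2A lower. In HOXB13ko versus Control 2 of the 5 were called, CDKN1A higher and CDKN2A lower, where 32.9% of all genes were called. In HOXB13ko-LV-MEIS1 versus HOXB13ko 0 of the 5 were, where only 0.0502% of all genes were. The count of 4 in LV-MEIS1 versus Control was 3 without Control replicate 2 or LV-MEIS1 replicate 2. The count of 2 in HOXB13ko versus Control was 1 with a prior without a trend. It was also 1 without replicate 2 or 3 of Control, replicate 2 or 3 of HOXB13ko, or replicate 2 of HOXB13ko-LV-MEIS1. All 5 were listed, and the fifth, CDKN2D, was at 17.3 ± 1.58 CPM in Control and 17.3 ± 0.787 in LV-MEIS1.

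**Figure D3:**
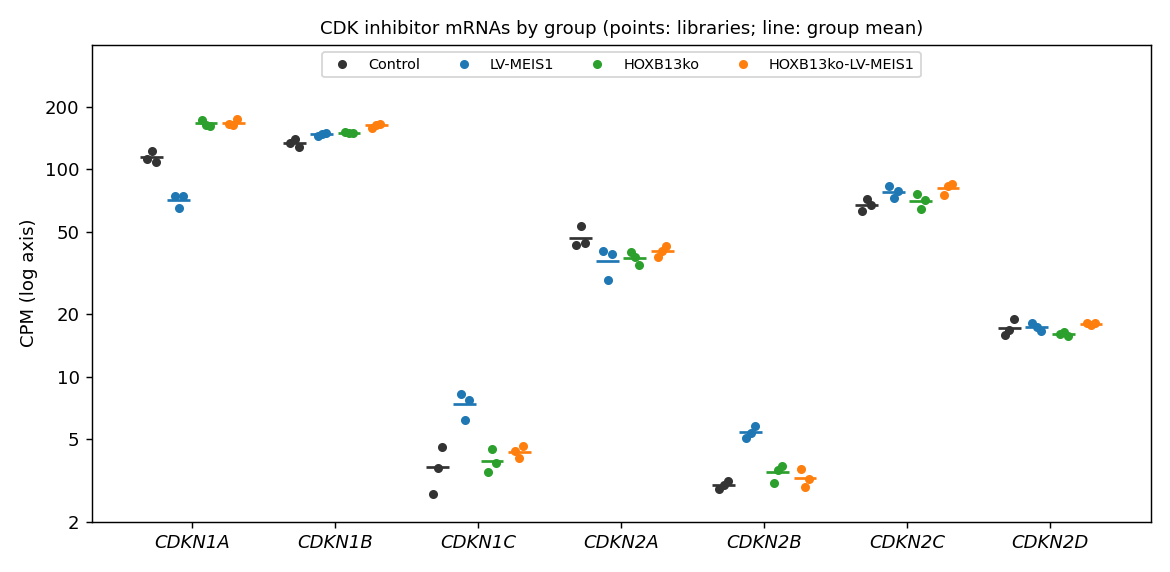
Level of 7 CDK inhibitors by group on a log axis in CPM. Points are libraries and lines are means of 3. CDKN1A is lower in LV-MEIS1 than in Control while CDKN1C and CDKN2B are higher, and CDKN1B and CDKN2C shift by much less.

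Of 29 E2F target genes of the G1/S transition, which encode replication licensing and nucleotide synthesis proteins, 12 were called lower and 2 higher in LV-MEIS1 versus Control, where 21.3% and 23.2% of all genes were. In HOXB13ko versus Control 12 were called lower and 0 higher, where 16.4% and 16.5% of all genes were. In HOXB13ko-LV-MEIS1 versus HOXB13ko 0 were called, where only 0.0502% of all genes were. The median log2 fold changes of the list were -0.13, -0.12 and 0.07, beside 0.01, 0.00 and 0.01 for all genes. Below 0 lay 24, 23 and 4 of the 29. The smallest count of lower genes over the other settings was 8 in LV-MEIS1 versus Control, without LV-MEIS1 replicate 2, and 9 in HOXB13ko versus Control, without HOXB13ko replicate 3. S phase genes were known to be low in these data when the list was drawn up, so the direction is not independent evidence. In the difference of the MEIS1 effects 10 were called lower and 1 higher, where 16.2% and 18% of all genes were. The lower levels under the knockout label did not recur in HOXB13ko-LV-MEIS1 versus LV-MEIS1. There 4 were called lower and 7 higher, with a median of 0.02, where 50.1% of all genes were called in either direction.

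In the RB, E2F and DP family, 16 of 16 genes were listed. In LV-MEIS1 versus Control 4 were called higher and 4 lower, and in HOXB13ko versus Control 1 higher and 5 lower. The 8 and 6 genes called of 16 lie near the shares over all genes, 44.5% and 32.9%. E2F1, an activator of the G1/S genes named here after its values were seen, was at 118, 132 and 119.8 CPM in Control, 101, 81.3 and 88.7 in LV-MEIS1, 97.9, 91.1 and 83.2 in HOXB13ko and 92.2, 92.7 and 97.1 in HOXB13ko-LV-MEIS1. All libraries of the 3 derived groups lay below Control. E2F1 fell by 0.45 ± 0.08 on the log2 scale in LV-MEIS1 versus Control (eBayes adjusted p = 0.00029) and by 0.44 ± 0.08 in HOXB13ko versus Control (adjusted p = 0.00072), and its log2 fold change in HOXB13ko-LV-MEIS1 versus HOXB13ko was 0.05 ± 0.08.

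Of 12 mitosis genes, eBayes called 2 higher and 3 lower in LV-MEIS1 versus Control, where 23.2% and 21.3% of all genes were, and 8 higher and 1 lower in HOXB13ko versus Control, where 16.5% and 16.4% were. The medians were -0.02 and 0.23. This list was drawn up with earlier results of these data known. Without Control replicate 2 or HOXB13ko replicate 3, 5 were called higher in HOXB13ko versus Control. In HOXB13ko-LV-MEIS1 versus HOXB13ko 0 mitosis genes were called, where only 0.0502% of all genes were. In HOXB13ko-LV-MEIS1 versus LV-MEIS1 9 were called higher and 0 lower, with a median of 0.33, where 50.1% of all genes were called in either direction.

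Of 8 other kinases and activators of G1 and G1/S, 7 were listed, and 1 was called by treat in HOXB13ko versus Control. This was CDC25A, the phosphatase that activates CDK2, at 34.7 ± 1.88 CPM in Control, 31.3 ± 1.57 in LV-MEIS1, 15.3 ± 0.569 in HOXB13ko and 14.2 ± 0.866 in HOXB13ko-LV-MEIS1. It fell by 1.15 ± 0.07 on the log2 scale in HOXB13ko versus Control (treat adjusted p = 0.00015), a larger change than that of any of the 9. By eBayes 0 were higher and 1 lower in LV-MEIS1 versus Control, and 1 higher and 2 lower in HOXB13ko versus Control. Of 15 upstream regulators, 6 were higher and 2 lower in LV-MEIS1 versus Control and 3 higher and 2 lower in HOXB13ko versus Control. Treat called LEF1, a Wnt effector for which CCND1 is a known target, at 23.1 ± 0.29 CPM in Control, 21.8 ± 0.303 in LV-MEIS1, 9.42 ± 0.964 in HOXB13ko and 10.2 ± 1.06 in HOXB13ko-LV-MEIS1. It fell by 1.26 ± 0.09 on the log2 scale in HOXB13ko versus Control (treat adjusted p = 0.00024), where CCND1 differed by -0.03 ± 0.05. The part of LEF1 in the level of CCND1 was not tested. Of 15 genes for the turnover of G1 cyclins and inhibitors, 3 were higher and 2 lower in LV-MEIS1 versus Control, and 3 higher and 0 lower in HOXB13ko versus Control. Of all genes, 23.2% were higher and 21.3% lower in LV-MEIS1 versus Control, and 16.5% and 16.4% in HOXB13ko versus Control. In HOXB13ko-LV-MEIS1 versus HOXB13ko 0 genes of these 3 lists were called, where only 0.0502% of all genes were.

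**Figure D4:**
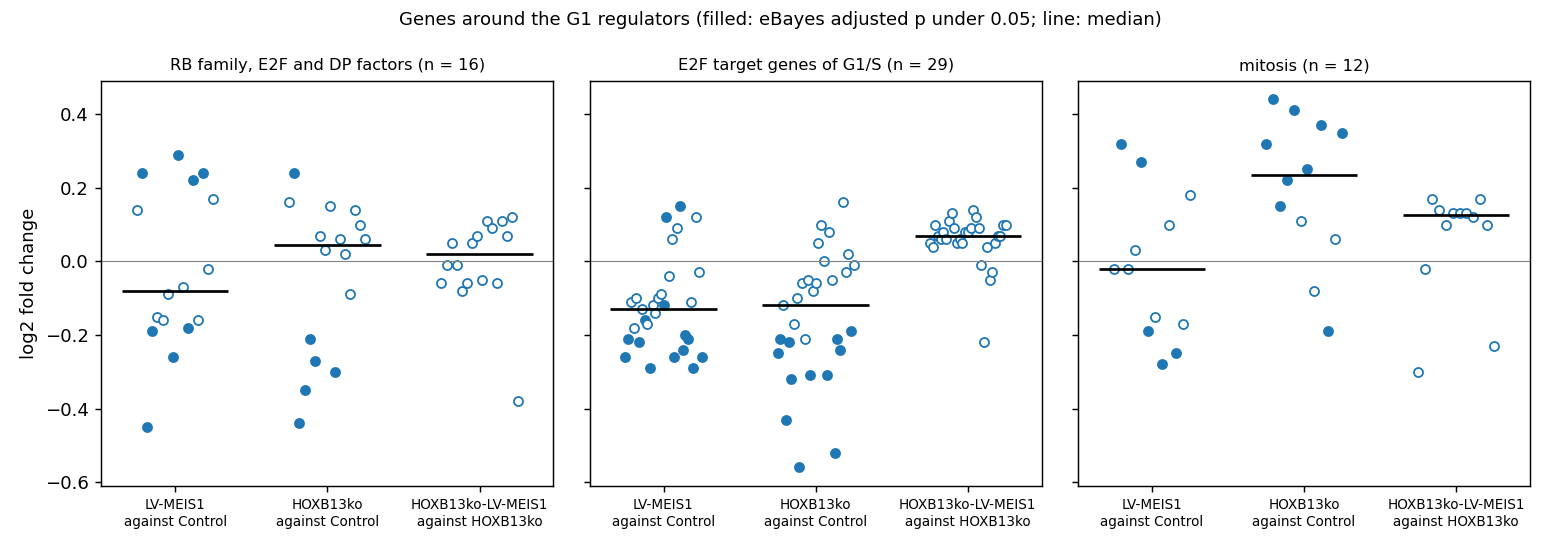
Log2 fold change of each gene of 3 lists in 3 comparisons. Filled points have an eBayes adjusted p under 0.05 and lines are medians. Most E2F targets lie below 0 in LV-MEIS1 and in HOXB13ko versus Control, and most mitosis genes lie above 0 in HOXB13ko versus Control. No point is filled in HOXB13ko-LV-MEIS1 versus HOXB13ko, where only 0.0502% of all genes were called.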

How the data were processed

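Single-end reads of poly-A libraries from 12 cultures of CWR22Rv1 derivatives were analysed as deposited, in CPM. To make the CPM values, the authors used Trimmomatic 0.38 for trimming and kallisto 0.43.1 for pseudoalignment to the Ensembl GRCh38 transcriptome, without strand. Estimated counts were summed per gene, low genes were dropped and library sizes were normalised with edgeR 3.22.2. CASAVA 1.8 is also named in the submitters' processing notes. Each group has 1 file of 13993 rows, and 42 rows that repeated another were left out.

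Groups follow the labels. Depth was estimated from the step between low CPM values as 17200000 to 28700000 reads per library, at which 3 reads correspond to 0.105 to 0.175 CPM. Between 47.5% and 60.6% of low values lay within 0.1 of a whole number of steps, so whole reads could not be recovered for a count test.

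The log2(CPM + 0.5) values of 13951 genes in all 12 libraries entered a limma 3.58.1 model (R 4.3.3) of 1 mean per group, with a trended prior. Fold changes on that scale understate changes of genes with low CPM. Genes were called at a Benjamini-Hochberg adjusted p under 0.05, by treat against a 1.5-fold change, which follows the authors' threshold, and by eBayes against no change. The difference of the MEIS1 effects is the log2 fold change of LV-MEIS1 versus Control minus that of HOXB13ko-LV-MEIS1 versus HOXB13ko. The fit was tested on simulated data. Lengths came from GENCODE 44 and promoter letters from RefSeq. Python 3.11.15 and matplotlib 3.10.9 were used for counts and figures.

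The genes, lists and tests were chosen with earlier results of these data known. By rule, all listed members were named, with MEIS1, HOXB13 and CDKN1A as checks, at most 3 genes per list called by treat in LV-MEIS1 versus Control, HOXB13ko versus Control or the difference, the 3 genes most correlated with each of the 2 members of widest range, and medians of 5 neighbours on either side. MYC was named for the E-box. Other settings changed the pseudocount (0.1 or 1), kept genes averaging at least 1 CPM, rescaled libraries in 3 ways, added the replicate number, removed the trend of the prior, lowered the adjusted p threshold to 0.01, fitted each pair of groups alone, used another gene length or left out a library.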

Additional observations from a re-analysis of the deposited data

Results flagged for a closer look

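In the main fit, RB1 was the 1 gene of the 9 called by a test of the difference itself. That test compares the effect of MEIS1 between cells labelled Control and cells labelled HOXB13ko. The log2 fold change of RB1 was 0.33 ± 0.07 in LV-MEIS1 versus Control and 0.03 ± 0.07 in HOXB13ko-LV-MEIS1 versus HOXB13ko, and the difference was 0.30 ± 0.10 (limma eBayes adjusted p = 0.0318). RB1 was higher than every Control library in 3 of 3 LV-MEIS1 libraries, and these groups did not overlap for 51.3% of all genes. The adjusted p of the RB1 difference ranged from 0.00263 to 0.0831 over 20 other settings, and the difference was called in 11 of them. For CDK4 the difference was -0.29 ± 0.11 (eBayes adjusted p = 0.0585), called in 4 of 20 other settings. For CDK6 it was 0.26 ± 0.18 (adjusted p = 0.284), called in 1 of 20. The same test called 34.2% of all genes, a larger share than 1 of 9. For MEIS1 mRNA itself it gave 0.44 ± 0.11 (eBayes adjusted p = 0.00627), with 47.4 CPM in LV-MEIS1 and 29.7 in HOXB13ko-LV-MEIS1. The part of the MEIS1 level, or of the pooling of clones, in the RB1 difference was not tested.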

How the results depend on the processing

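In treat, 0 of the 9 genes were called under any alternative run. No value that was called changed direction. By eBayes, the count of 4 in LV-MEIS1 versus Control became 2 with a prior without a trend and 1 at an adjusted p under 0.01, and ranged from 2 to 4 when 1 library was left out. The count of 3 in HOXB13ko versus Control became 0 at an adjusted p under 0.01 and ranged from 1 to 3 without 1 library. The count of 1 in the difference of the MEIS1 effects became 2 with median of ratios scaling, 0 with a prior without a trend and 0 at an adjusted p under 0.01, and ranged from 0 to 3 without 1 library. The count of 2 in HOXB13ko-LV-MEIS1 versus LV-MEIS1 became 0 at an adjusted p under 0.01 and ranged from 1 to 3 without 1 library. The causes were not tested. Where a library was left out, the remaining 2 of its group were assumed to vary like the others. With the longest transcript as gene length, the CCND3 share was 1.94% in Control, 1.65% in LV-MEIS1, 1.96% in HOXB13ko and 2.08% in HOXB13ko-LV-MEIS1. Over all genes, the other scalings shifted the median by no more than 0.039 log2 units.

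Replicates share numbers across groups. Correlations of the deviations of same-numbered libraries from their group means lay between -0.21 and 0.15, which shows no strong shared shift. With 3 libraries per group they cannot exclude pairing, and the labels do not say whether same-numbered cultures were handled together. With the replicate block, 2 of the 9 genes were called in LV-MEIS1 versus Control, 3 in HOXB13ko versus Control, 0 in HOXB13ko-LV-MEIS1 versus HOXB13ko, 0 in the difference of the MEIS1 effects and 2 in HOXB13ko-LV-MEIS1 versus LV-MEIS1. The calls lost were CDK4 (adjusted p = 0.0508) and CDKN2C (0.0593) in LV-MEIS1 versus Control and RB1 in the difference (0.0568). Of the 5 inhibitors outside the set, 1 in place of 2 was called in HOXB13ko versus Control. Counts of the E2F target, mitosis and inhibitor lists under these settings were added after seeing the data. CCNE1, with the fewest reads, carried a counting error of 5.91% to 7.79% per library.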

Other observations

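The 3 genes whose level was most like that of CDK6 over the 12 libraries were AGO1, ZNF620 and VPS13A, with Pearson correlations of log2(CPM + 0.5) of 0.94, 0.93 and 0.92 among 13901 genes. AGO1, an Argonaute protein of small RNA silencing, was at 97.1 ± 8.25 CPM in Control, 108 ± 5.13 in LV-MEIS1, 91.5 ± 5.36 in HOXB13ko and 82.7 ± 4.95 in HOXB13ko-LV-MEIS1 (mean ± SD, n = 3). For RB1 they were C2CD5, HIPK3 and LMBR1, with 0.98, 0.97 and 0.97. HIPK3, a nuclear protein kinase, was at 57.6 ± 10.3 CPM in Control, 78.0 ± 3.66 in LV-MEIS1, 70.8 ± 3.24 in HOXB13ko and 69.0 ± 2.35 in HOXB13ko-LV-MEIS1. These correlations are a description over libraries that share groups and depth.

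Genes beside the members on the chromosome were compared as well, 5 on either side. The 10 neighbours of CDK4, all within 0.185 Mb, had a median log2 fold change of -0.11 in LV-MEIS1 versus Control and -0.17 in HOXB13ko versus Control, beside -0.23 and -0.30 for CDK4. The 10 neighbours of RB1 had medians of 0.12 and 0.06, beside 0.33 and 0.23 for RB1. Those of CDKN1B had medians of 0.22 and 0.15, beside 0.14 and 0.16 for CDKN1B. CCND3 and CCNE2 also had the sign of their neighbours in both comparisons. The remaining members did not. In HOXB13ko versus Control, CDK6 was at -0.17 beside 0.15, CCNE1 at -0.19 beside 0.01 and CDKN2C at 0.06 beside -0.11. In LV-MEIS1 versus Control, CCND1 was at 0.08 beside -0.05. The neighbours of CDK4 include TSPAN31, with which it shares exon bases. Whether changes of the regions have a part in those of the members was not tested.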
